A study of Mus musculus with 22 samples.

Results

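VEGF ligands, their receptors and 2 endothelial junction genes were followed in primary mouse embryonic fibroblasts (MEFs) without Lsh (KO) and with Lsh (WT). The set holds 10 genes chosen by symbol: the receptor genes Flt1, Kdr and Flt4, the co-receptor gene Nrp1, the ligand genes Vegfa, Vegfb, Vegfc and Pgf, and the endothelial genes Pecam1 and Cdh5. All 10 were among the 16266 genes listed in each of the 4 RNA libraries. KO cells were Lsh-/- and WT cells Lsh+/+, with 2 libraries each, called KO1, KO2, WT1 and WT2 after genotype and replicate number. Both genotypes came from the bodies of C57BL/6 embryos at stage E13.5 and were grown, with no treatment given in the labels, to passage 3 to 4. Lsh, the product of Hells, is a chromatin remodeller needed for normal DNA methylation. The labels call the libraries biological replicates without saying whether each came from its own embryo, and do not say which part of the gene is missing. If the libraries of a genotype share a source, p-values measure only the spread between these libraries, which may be technical.

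VEGF ligands are secreted proteins that bind receptor tyrosine kinases on endothelial cells, the cells that line blood and lymph vessels. VEGF-A binds the products of Flt1 (VEGFR1) and Kdr (VEGFR2), PlGF and VEGF-B bind VEGFR1, and VEGF-C binds VEGFR3, the product of Flt4, and VEGFR2. VEGFR2 carries most of the growth signal in endothelium, whereas VEGFR1 binds VEGF-A tightly, signals weakly and also exists as a soluble form. Fibroblasts are known as a source of ligands, so receptor RNA in a fibroblast culture raises the question whether it stands for a minority of endothelial cells.

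The libraries held an estimated 122.5 to 176.6 M (mega) mapped reads and are given in RPKM, reads per kilobase of exon per M mapped reads. Hells was at 0.430 and 0.550 RPKM in KO1 and KO2, against 0.865 and 1.06 RPKM in WT1 and WT2, and missed the threshold (limma adjusted p 0.200 with genotype and replicate number in the fit). Libraries of the same replicate number resembled each other more (Pearson's r across genes 0.980 and 0.983) than those of the same genotype (0.897 between the KO and 0.893 between the WT libraries), and the files of the 2 numbers list different sets of transcripts. For that reason KO is also set against WT within each number. The filter on low values kept a gene that reached 0.5 RPKM in 2 or more libraries, and the test used log2(RPKM + 0.5), a scale that understates the change of low genes. A limma fit of genotype alone called 0 of 11147 genes (0%) at an adjusted p below 0.05, with 41 (0.368%) at an unadjusted p below 0.05. A limma fit of genotype and replicate number, the genotype-and-number fit, called 75 (0.673%), of which 42 were higher and 33 lower in KO. For the genotypes, "rose" and "fell" refer to calls of this fit. Its p-values rest on 1 residual degree of freedom per gene and on variance shared across genes.

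Of the 10 genes, 8 passed the filter on low values, and Flt1 was the only one called between the genotypes (1 of 8, 0.377% of all genes tested rose). Flt1 rose about as much in both replicate numbers, Kdr was lower in KO in both, and Vegfc was higher in KO in both. Vegfa, Nrp1, Flt4, Pgf and Vegfb differed more between the replicate numbers than between the genotypes. Pecam1 and Cdh5, the defining endothelial genes of the set, stayed below 0.06 RPKM in every library and did not pass the filter.

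**Figure D1:**
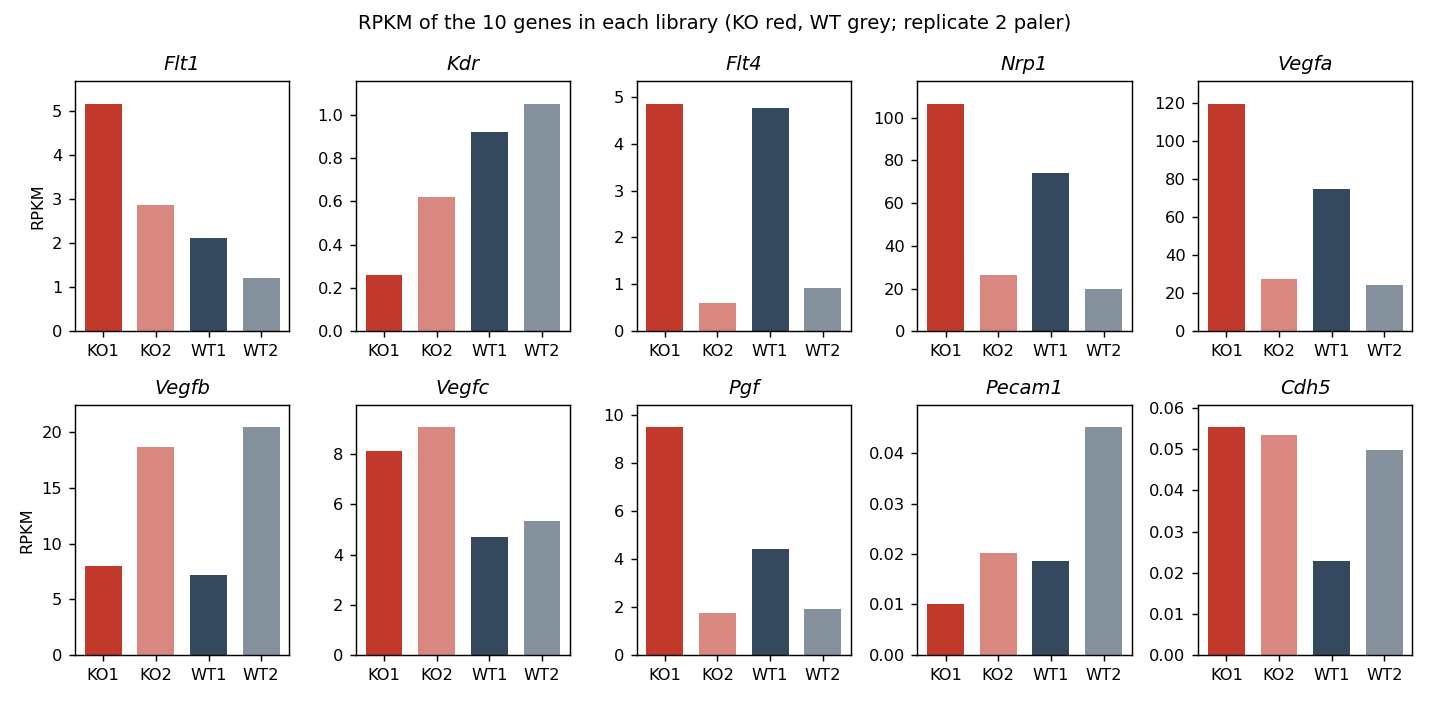
Deposited RPKM of each of the 10 genes (vertical axes, each from 0 with its own scale) in the libraries KO1, KO2, WT1 and WT2 (bars, 1 library each, so without error bars). Both KO bars are above both WT bars for Flt1, Vegfc and, at levels below 0.06 RPKM, Cdh5, and below them for Kdr, whereas Flt4, Nrp1, Vegfa, Vegfb and Pgf separate by replicate number.

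Flt1 (chromosome 5, 148373772 to 148537565, minus strand, mm9) was at 5.17 RPKM in KO1 and 2.87 RPKM in KO2, against 2.11 RPKM in WT1 and 1.21 RPKM in WT2. Both KO libraries were above both WT libraries, and the level was higher for replicate 1 than for replicate 2 in each genotype. The mean was 4.02 ± 1.62 RPKM in KO and 1.66 ± 0.631 RPKM in WT (SD, n = 2 each). KO over WT, the ratio was 2.45 for replicate 1 and 2.36 for replicate 2. The log2 change was 1.05, with an SE of 0.43 in limma on genotype alone (adjusted p 1.00) and of 0.18 in the genotype-and-number fit (adjusted p 0.0286). The call is not stable: the adjusted p over the alternatives of that limma fit ran from 0.00328 to 0.468. It ended with a pseudocount of 0.1 (0.0586 in limma), with the highest transcript in place of the sum (0.140) and with no filter on low values (0.468). The files list 1 Flt1 transcript, so the membrane-bound and soluble forms are not separated here. At these depths the Flt1 level corresponds to 633 and 390 reads per kilobase of exon in KO1 and KO2, against 279 and 215 in WT1 and WT2.

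Kdr (chromosome 5, 76329299 to 76374454, minus strand, mm9) lay in the other direction. It was at 0.258 and 0.622 RPKM in KO1 and KO2, against 0.918 and 1.05 RPKM in WT1 and WT2, so both KO libraries were below both WT libraries. KO over WT, the ratio was 0.281 for replicate 1 and 0.592 for replicate 2. The log2 change was -0.69 (SE 0.17 in the genotype-and-number fit) and missed the threshold, with a limma adjusted p of 0.140 (0.0641 to 0.544 over the alternatives) and an unadjusted p of 0.00242. Per kilobase of exon, Kdr had 31.6 and 84.6 reads in KO1 and KO2 and 121 and 185 reads in WT1 and WT2.

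With Flt1 higher and Kdr lower in KO, and Flt4 lower in replicate 2, the make-up of the receptor RNA differed with genotype and replicate number. The ratio of Flt1 to Kdr RPKM was 20.0 in KO1 and 4.62 in KO2, against 2.30 in WT1 and 1.16 in WT2. Flt1 made up 50.3% and 70.3% of the summed RPKM of the 3 receptors in KO1 and KO2, against 27.1% and 38.2% in WT1 and WT2. Kdr made up 2.51% and 15.2% in KO1 and KO2, against 11.8% and 33.0% in WT1 and WT2. Flt4 made up 47.2% and 14.5% in KO1 and KO2, against 61.2% and 28.8% in WT1 and WT2. In each genotype the Flt1 share was larger for replicate 2, where Flt1 itself was lower. The shares of Flt1 did not overlap between the genotypes, and those of Kdr and Flt4 did. The shares are descriptions of single libraries and were not tested.

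Flt4 (chromosome 11, 49423181 to 49466242, plus strand, mm9) was at 4.85 and 0.593 RPKM in KO1 and KO2, against 4.76 and 0.917 RPKM in WT1 and WT2. The genotypes overlapped (log2 change -0.18, SE 0.19, limma adjusted p 0.895 in the genotype-and-number fit). The level was 8.19 times higher in KO1 than in KO2 and 5.19 times higher in WT1 than in WT2.

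Nrp1 (chromosome 8, 130882973 to 131029376, plus strand, mm9), a co-receptor that binds both VEGF-A and class 3 semaphorins, was far more abundant than the 3 receptors. It was at 107 and 26.4 RPKM in KO1 and KO2, against 74.0 and 19.7 RPKM in WT1 and WT2. The KO level was 1.44 times the WT level for replicate 1 and 1.34 times for replicate 2. The log2 change of 0.47 (SE 0.16 in the genotype-and-number fit) missed the threshold (limma adjusted p 0.348). Nrp1 stood at 10.4 and 6.46 times the summed receptor RPKM in KO1 and KO2, against 9.50 and 6.20 times in WT1 and WT2.

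**Figure D2:**
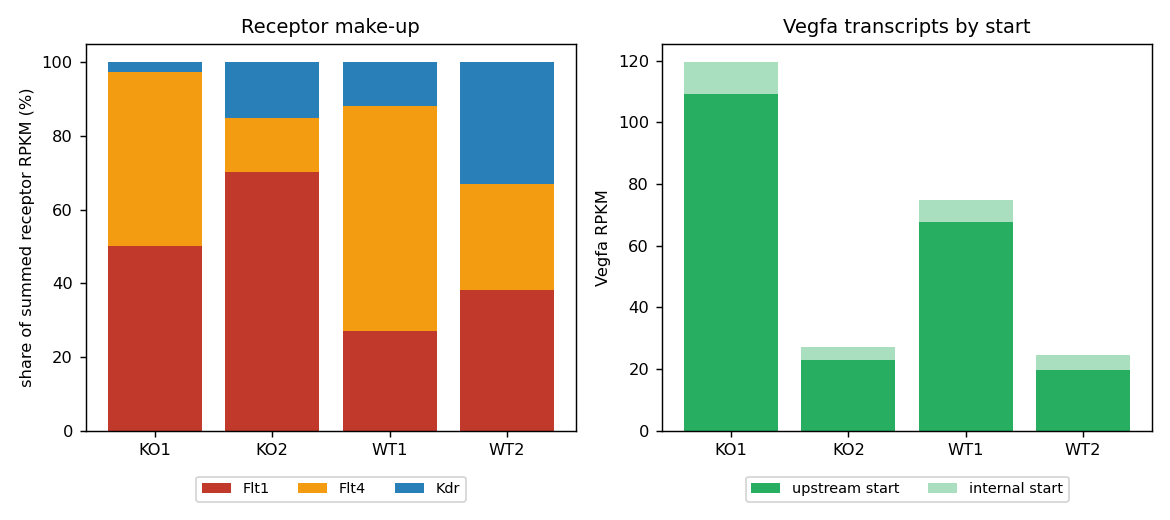
Left, share (%) of Flt1, Flt4 and Kdr in their summed RPKM per library; right, Vegfa RPKM per library split into transcripts with the upstream and the internal start. Flt1 takes 50.3% and 70.3% in KO1 and KO2, against 27.1% and 38.2% in WT1 and WT2, and the internal start takes the larger share of Vegfa in the replicate 2 libraries.

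Since Lsh is needed for DNA methylation, which in mammals lies mostly at CG dinucleotides, the bases before the start sites of Flt1 and Kdr are shown with each CG in capitals. Both are 250 bases that end just before the RefSeq start, in build GRCm38.p6, read on the gene's own strand (chr5:147726012-147726261 and chr5:75978456-75978705, both minus strand). Methylation and binding at these windows are not analysed here.
Flt1: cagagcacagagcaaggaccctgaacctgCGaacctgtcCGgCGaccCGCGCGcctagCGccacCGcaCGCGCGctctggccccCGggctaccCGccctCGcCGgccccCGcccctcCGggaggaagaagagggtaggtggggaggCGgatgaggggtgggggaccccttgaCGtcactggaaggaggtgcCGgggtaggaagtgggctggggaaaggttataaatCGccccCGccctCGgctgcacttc
Kdr: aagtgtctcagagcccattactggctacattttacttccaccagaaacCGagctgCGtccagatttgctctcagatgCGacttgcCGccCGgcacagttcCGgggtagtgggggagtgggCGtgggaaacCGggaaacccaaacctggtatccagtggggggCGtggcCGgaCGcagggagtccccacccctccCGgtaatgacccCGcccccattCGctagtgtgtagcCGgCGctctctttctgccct
The Flt1 window holds 23 CG dinucleotides and the Kdr window 16. Of 32817 windows of the same length before RefSeq starts, 13.3% had at least 23 and 25.4% at least 16, with a median of 6. CG reads the same on both strands. The Flt1 window also holds the palindrome TGACGTCA, the letters of a cAMP response element, which starts 81 bases before the start site and overlaps 1 of the CG dinucleotides. It occurs in 1.55% of all windows and in none of the other 9 windows of these genes. Windows were at hand for 8 of the 10 genes (10 windows, since Vegfa and Pgf have 2 each), not for Pecam1 and Cdh5.

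Among the ligands, Vegfc (chromosome 8, 55162886 to 55271809, plus strand, mm9), the ligand of lymphatic endothelium, separated the genotypes with little difference between the replicate numbers. It was at 8.13 and 9.07 RPKM in KO1 and KO2, against 4.71 and 5.34 RPKM in WT1 and WT2. Both KO libraries were above both WT libraries, as for Flt1. The mean was 8.60 ± 0.659 RPKM in KO and 5.03 ± 0.451 RPKM in WT (SD, n = 2 each). The ratio of KO to WT was 1.73 for replicate 1 and 1.70 for replicate 2. The log2 change was 0.72, with an SE of 0.24 in limma with genotype only (adjusted p 1.00, unadjusted p 0.0370). Vegfc was the 1 gene of the 8 with an unadjusted p below 0.05 in that fit. The genotype-and-number fit gave an SE of 0.17 and a limma adjusted p of 0.0992, which missed the threshold. The same fit after quantile normalization called it (limma adjusted p 0.0255, range over the alternatives 0.0255 to 0.484). The 250 bases before its start (GRCm38.p6, chr8:54077282-54077531, plus strand, CG in capitals) are shown because Vegfc, like Flt1, passed the filter and was higher in both KO libraries.
Vegfc: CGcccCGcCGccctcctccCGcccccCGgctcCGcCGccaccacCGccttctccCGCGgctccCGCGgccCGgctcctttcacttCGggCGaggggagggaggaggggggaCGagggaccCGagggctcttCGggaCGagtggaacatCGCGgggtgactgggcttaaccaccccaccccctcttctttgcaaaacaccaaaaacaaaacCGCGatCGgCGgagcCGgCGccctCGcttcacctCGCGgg
This window holds 30 CG dinucleotides, a number that 5.9% of all windows reach. Of the other windows of these genes, that of Vegfb holds 26 (reached by 9.6%) and that of Flt4 16. The Nrp1 window holds 11, the Vegfa windows 11 and 7 and the Pgf windows 20 and 7. Whether the CG number goes with the difference between the genotypes was not tested.

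Vegfa (chromosome 17, 46153943 to 46169327, minus strand, mm9), the main driver of vessel growth, was the most abundant gene of the set in every library. It was at 119 and 27.2 RPKM in KO1 and KO2, against 74.8 and 24.5 RPKM in WT1 and WT2. KO was higher by a ratio of 1.60 for replicate 1 and 1.11 for replicate 2, and the genotypes overlapped. The log2 change was 0.41 (SE 0.18 in the genotype-and-number fit, limma adjusted p 0.531). The files list 6 Vegfa transcripts, of which 3 start at 46169327 and 3 at the internal start at 46162113. The internal start took 8.67% and 15.7% of Vegfa RPKM in KO1 and KO2, against 9.57% and 19.4% in WT1 and WT2. In RPKM it was at 10.4 and 4.27 in KO1 and KO2 and at 7.16 and 4.75 in WT1 and WT2. These shares rest on the authors' division of reads between overlapping transcripts and were not tested. Of the windows before the starts of these genes, the one before the internal Vegfa start holds ACGTG, searched on both strands. ACGTG is 1 form of the core letters bound by hypoxia-inducible factors, and other forms were not searched. It occurs in 16.6% of all windows. The window before the internal start lies within the span of the transcripts with the upstream start, and binding there was not tested.

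Pgf (chromosome 12, 86507591 to 86518236, minus strand, mm9), which encodes placental growth factor, was at 9.48 and 1.73 RPKM in KO1 and KO2, against 4.43 and 1.92 RPKM in WT1 and WT2. Its difference turned between the numbers: the KO level was 2.14 times the WT level for replicate 1 and 0.900 of it for replicate 2. The log2 change was 0.45 (SE 0.28, limma adjusted p 0.761 in the genotype-and-number fit). Vegfb (chromosome 19, 7056962 to 7062142, minus strand, mm9), a ligand linked to heart and fat tissue, was at 7.97 and 18.7 RPKM in KO1 and KO2, against 7.14 and 20.4 RPKM in WT1 and WT2. Its ratio of KO to WT was 1.12 for replicate 1 and 0.916 for replicate 2 (log2 change 0.01, SE 0.17, limma adjusted p 0.994 in the genotype-and-number fit). Neither gene separated the genotypes.

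**Figure D3:**
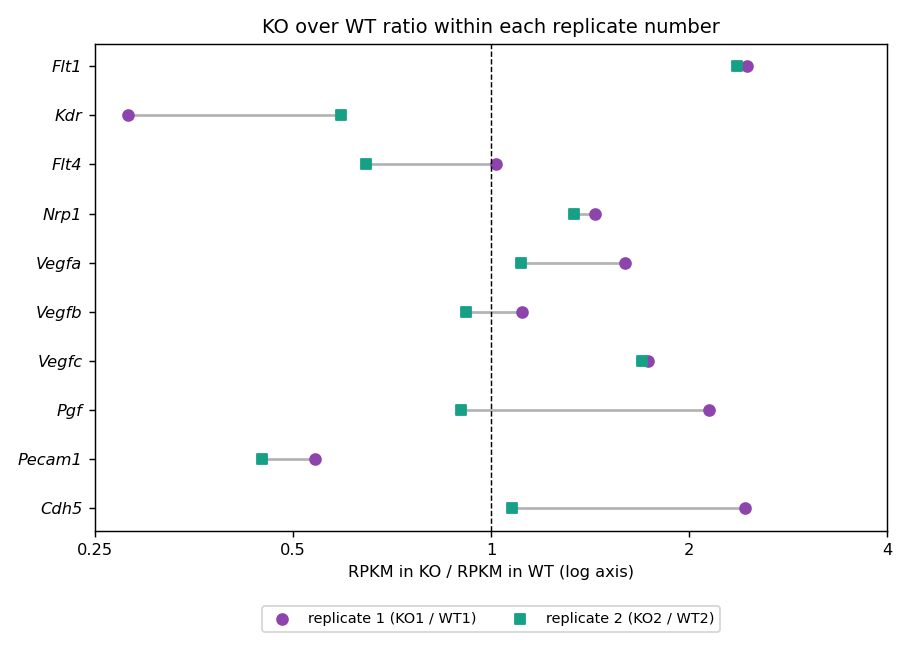
Ratio of KO to WT RPKM (horizontal, log axis) for each of the 10 genes, for replicate 1 (circles) and replicate 2 (squares), each from 1 library per genotype. Flt1 lies at 2.45 and 2.36 and Vegfc at 1.73 and 1.70, Kdr lies below 1 in both numbers, and Pgf, Vegfb and Flt4 lie on both sides of 1; Pecam1 and Cdh5 rest on at most 8.78 reads per kilobase.

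Of the 8 genes tested, 4 (Flt1, Nrp1, Vegfa and Vegfc) were higher in KO within both replicate numbers, against 22.5% of all genes tested, and 1 (Kdr) was lower within both, against 31.4%. Both KO libraries were above both WT libraries for 2 of the 8 (6.1% of all genes) and below them for 1 (7.32%). In the genotype-and-number fit 5 of the 8 had an unadjusted limma p below 0.05 (Flt1, Kdr, Nrp1, Vegfa and Vegfc), against 9.1% of all genes. The genes were chosen with earlier results known, so these counts describe the set and are no test of it. The median log2 change of the ligands was 0.70 for replicate 1 and 0.01 for replicate 2, beside -0.07 and 0.02 for all genes tested.

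**Figure D4:**
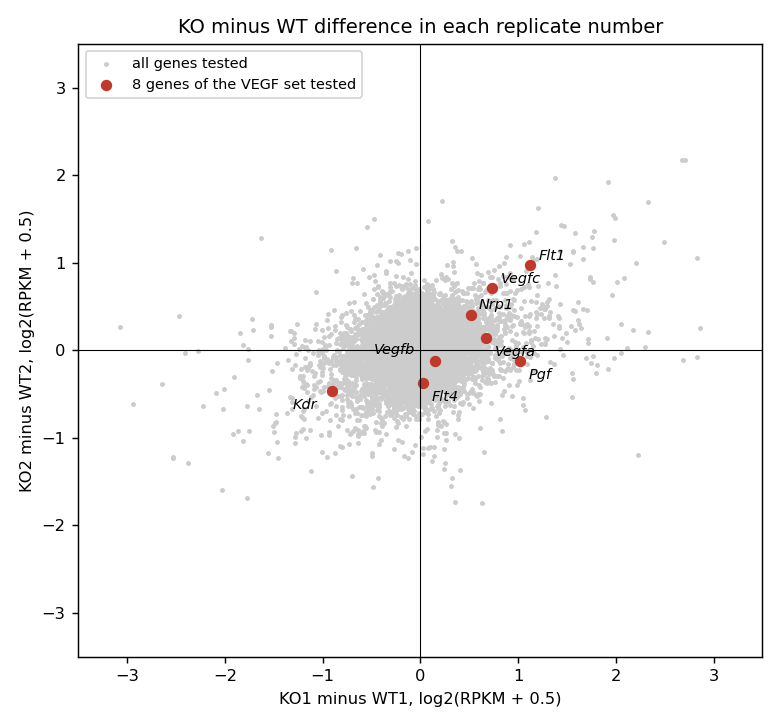
KO1 minus WT1 (horizontal) against KO2 minus WT2 (vertical) in log2(RPKM + 0.5) for the 11147 genes tested (grey) and the 8 genes of the set that were tested (red). Flt1, Vegfc, Nrp1 and Vegfa are above 0 on both axes, Kdr is below 0 on both, and Pgf, Vegfb and Flt4 have differences of opposite sign.

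The same limma fit called 6 of the 8 genes between the replicate numbers, against 47.8% of all genes tested. Replicate 2 was lower in 5 (11.9% of all genes) and higher in 1 (35.8%). Both replicate 2 libraries lay below both replicate 1 libraries for 4 of the 8 (21.2% of all genes) and above them for 1 (53.3%). Nrp1 was at 26.4 and 19.7 RPKM in KO2 and WT2, against 107 and 74.0 RPKM in KO1 and WT1 (log2 change -1.94, SE 0.16, limma adjusted p 8.02e-06). Flt4 was lower as well (log2 change -2.09, SE 0.19, limma adjusted p 1.27e-05), as were Vegfa (-1.85, adjusted p 2.10e-05) and Pgf (-1.59, adjusted p 0.00338). Vegfb was higher (1.32, adjusted p 0.000124), with 18.7 and 20.4 RPKM in KO2 and WT2, against 7.97 and 7.14 RPKM in KO1 and WT1. Flt1 was lower with a log2 change of -0.68 (SE 0.18, adjusted p 0.0103), beside 1.05 between the genotypes. Kdr (0.35, adjusted p 0.124) and Vegfc (0.16, adjusted p 0.465) missed the threshold between the numbers. The median of all genes was 0.25 higher in replicate 2, and with median-ratio scaling, which brings it to 0.0042, the count was again 6. What distinguishes the numbers is not given in the labels.

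The order of the levels shifted with the replicate number. Vegfa and Nrp1 stood far above the others in KO1 and WT1, the next being Pgf at 9.48 RPKM in KO1 and Vegfb at 7.14 RPKM in WT1. In KO2 and WT2 Vegfb was close to them, with 18.7 RPKM beside 26.4 RPKM for Nrp1 in KO2 and 20.4 RPKM beside 19.7 RPKM in WT2. Vegfa took 82.4% and 48.0% of the summed ligand RPKM in KO1 and KO2, against 82.1% and 47.0% in WT1 and WT2. Among the receptors Flt1 was highest in KO1, KO2 and WT2, and Flt4 in WT1. By their means over libraries Flt1 and Flt4 (2.84 and 2.78 RPKM) did not differ beyond the spread between libraries, nor did Vegfa and Nrp1 (61.5 and 56.6 RPKM).

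The endothelial genes were used to ask whether Flt1 follows endothelial content. Pecam1 (chromosome 11, 106515532 to 106576596, minus strand, mm9), an adhesion molecule at endothelial junctions, was at 0.0100 and 0.0202 RPKM in KO1 and KO2, against 0.0185 and 0.0451 RPKM in WT1 and WT2. Its 2 transcripts took 70.5% and 29.5% in each library, which rests on the authors' division of reads between overlapping transcripts. Cdh5 (chromosome 8, 106625525 to 106668403, plus strand, mm9), which encodes VE-cadherin, was at 0.0553 and 0.0534 RPKM in KO1 and KO2, against 0.0228 and 0.0497 RPKM in WT1 and WT2. Pecam1 was lower in KO within both numbers and Cdh5 higher within both, on 1.23 to 7.96 reads per kilobase for Pecam1 and 3.01 to 8.78 for Cdh5. Both libraries of KO were above both of WT for Cdh5, and the genotypes overlapped for Pecam1. A limma fit of genotype and number with no filter on low values called neither (adjusted p 0.791 for Pecam1 and 0.815 for Cdh5), and a level near 0 in these files cannot be read as absence: Gapdh, a glycolytic enzyme gene used by every cell, is listed at 0.298 and 0.179 RPKM in KO1 and KO2, against 0.160 and 0 RPKM in WT1 and WT2.

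Summed, Pecam1 and Cdh5 were at 0.0653 and 0.0737 RPKM in KO1 and KO2, against 0.0413 and 0.0948 RPKM in WT1 and WT2. The Flt1 level was 79.1 and 38.9 times this sum in KO1 and KO2, against 51.0 and 12.8 times in WT1 and WT2. KO1 was above WT1 in both the sum and Flt1, whereas KO2 was below WT2 in the sum and above it in Flt1. With 4 libraries no correlation is given. In bulk RNA fewer cells of a type and less RNA per cell cannot be told apart.

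A list of 29 other endothelial genes was also low. Of these, 21 were below 0.5 RPKM in every library, and 5, 1, 8 and 4 of the 29 were listed at 0 in KO1, KO2, WT1 and WT2. Tie1, an endothelial receptor kinase, was listed at 0 in KO1, KO2 and WT1 and at 0.00146 RPKM in WT2, and Robo4, Sox17, Cldn5, Vwf and Nos3 stayed below 0.05 RPKM. The summed level was 6.97 and 17.9 RPKM in KO1 and KO2, against 6.99 and 21.2 RPKM in WT1 and WT2. By mean over the libraries Cd34, Eng and Erg were the most abundant, but Erg added little in KO1 and WT1. Ptprb, picked after its values were seen, was at 1.84 and 0.469 RPKM in KO1 and KO2, against 0.446 and 0.181 RPKM in WT1 and WT2. Of the 29 genes, low ones included, KO was above WT within both numbers for 6, Ptprb among them, and below for 8. Of the 6 that passed the filter the counts were 0 and 2, beside 22.5% and 31.4% of all genes tested. Both replicate 2 libraries were above both replicate 1 libraries for 16 of the 29, near the share of 53.3% over all genes tested, and below them for 1 (21.2%). These shares cover only genes that passed the filter, which most of the 29 did not. Of the 6 list members that passed the filter, which a high level in 1 group can bring about, 0 were called between the genotypes in either fit and 1 had an unadjusted limma p below 0.05 in the genotype-and-number fit. Between the replicate numbers 5 of the 6 were called higher in replicate 2 and 0 lower, beside 35.8% and 11.9% of all genes tested. Erg passed the filter only through the replicate 2 libraries, so this count is a description. Eng, a TGF-beta co-receptor also made by mesenchymal cells, was at 2.18 and 3.24 RPKM in KO1 and KO2, against 3.94 and 5.80 RPKM in WT1 and WT2 (limma adjusted p 0.101). After quantile normalization the same fit called Eng lower in KO (limma adjusted p 0.0323, range over the alternatives 0.0323 to 0.487). Cd34, a surface marker of vessels and progenitors, was at 1.29 and 5.98 RPKM in KO1 and KO2, against 0.739 and 7.21 RPKM in WT1 and WT2. Erg, an ETS factor, was at 0.0258 and 2.55 RPKM in KO1 and KO2, against 0.0718 and 2.74 RPKM in WT1 and WT2.

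**Figure D5:**
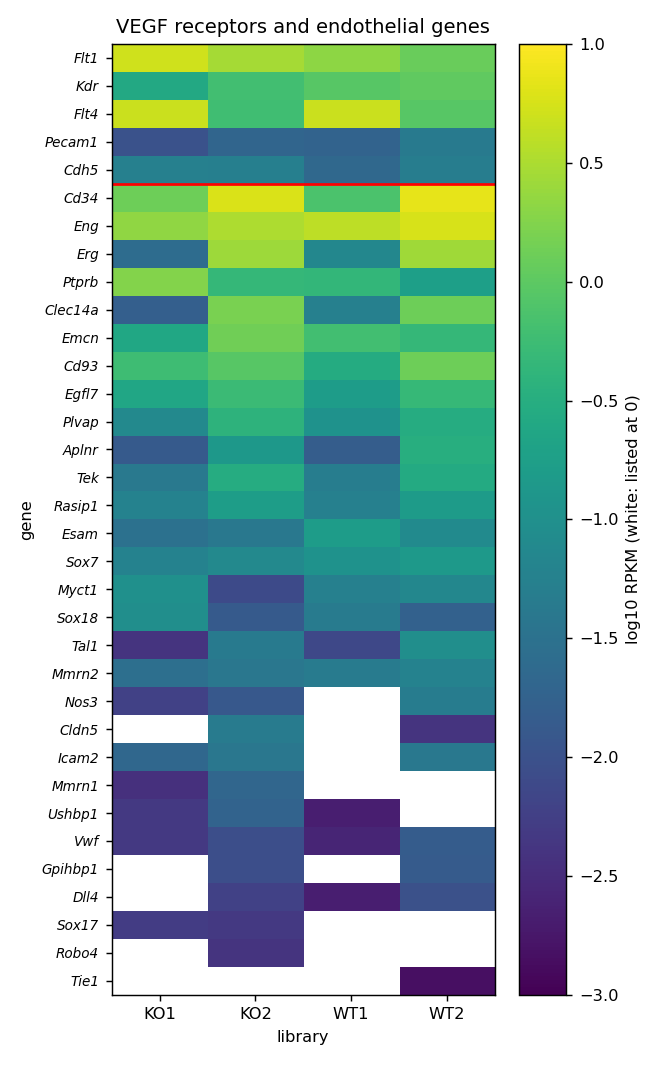
Level (colour, log10 RPKM; white where listed at 0) of the 3 receptors, Pecam1 and Cdh5 (above the red line) and of 29 other endothelial genes (below it, by highest level) in KO1, KO2, WT1 and WT2. Flt1 and Flt4 stand well above Pecam1 and Cdh5, and 21 of the 29 stay below 0.5 RPKM in every library.

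Markers of other cell types were read in the same way. Of 4 lymphatic endothelial genes present, Lyve1 and Prox1 stayed below 0.2 RPKM, whereas Pdpn and Nrp2, which fibroblasts also express, were at 44.0 to 71.5 and 11.7 to 23.5 RPKM. In limma 0 of these 2 were called, and 0 had an unadjusted p below 0.05. The 5 trophoblast genes present, of a lineage known for Flt1 and Pgf, stayed below 0.1 RPKM. Macrophage and blood genes, of a lineage that also carries Flt1, summed to 4.79 and 58.5 RPKM in KO1 and KO2, against 29.7 and 134 RPKM in WT1 and WT2. Of the 10 tested, 4 fell in KO (C1qc, Laptm5, Fcer1g and Cd14) and 0 rose, beside 0.296% and 0.377% of all genes tested, and the highest, C1qa and C1qb, missed the threshold (limma adjusted p 0.118 and 0.122 in the genotype-and-number fit). Over 9 settings of that fit C1qc was called in 5 and the other 3 genes in 6 each, with limma adjusted p up to 0.476. The part of these cells in the Flt1 level was not tested. Mural cell genes summed to 677 and 424 RPKM in KO1 and KO2, against 855 and 458 RPKM in WT1 and WT2. By mean over the libraries Acta2, Pdgfrb and Des were the most abundant of them. Des was at 2.38 and 38.0 RPKM in KO1 and KO2, against 23.7 and 31.5 RPKM in WT1 and WT2, so its difference turned between the numbers. Limma called 0 of the 10 tested. In the genotype-and-number fit 3 had an unadjusted p below 0.05, beside 9.1% of all genes tested, and Acta2 and Des were not among the 3. Epithelial genes summed to 5.79 and 4.18 RPKM in KO1 and KO2, against 15.5 and 14.9 RPKM in WT1 and WT2. Of their 2 tested members Krt19 fell, beside 0.296% of all genes tested, and Krt18 was not called. Krt19 had a limma adjusted p of 0.00186 in the genotype-and-number fit. It was called in 7 of 9 settings of that fit, with limma adjusted p up to 0.411. All 11 fibroblast genes were present, and 0 were called between the genotypes by limma. An unadjusted p below 0.05 was reached by 2, beside 9.1% of all genes tested. Vim, Col1a2 and Col1a1 were between 289 and 1307 RPKM in every library. Between the replicate numbers 10 of the 11 were called, 7 higher and 3 lower in replicate 2, beside 35.8% and 11.9% of all genes tested. Lum, a proteoglycan of fibroblast matrix, was at 105 and 108 RPKM in KO2 and WT2, against 1.27 and 0.718 RPKM in KO1 and WT1. Pdgfra, a PDGF receptor of mesenchymal cells, was at 23.1 and 23.2 RPKM in KO2 and WT2, against 2.46 and 0.987 RPKM in KO1 and WT1, so the replicate 1 libraries were low in part of the fibroblast markers.

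Regulators, partners and downstream genes of the VEGF system came to 0 calls in limma in either fit, so the counts of unadjusted p below 0.05 are those of the genotype-and-number fit. They stand beside 9.1% of all genes tested, and counts of genes higher or lower in both numbers beside 22.5% and 31.4%. Of 9 hypoxia-inducible factor genes tested, 0 had an unadjusted p below 0.05, KO was above WT within both numbers for 1 and below for 3, and the median log2 change was 0.02, against -0.02 for all genes. Hif1a, the oxygen-regulated subunit that drives Vegfa, was at 19.3 and 41.9 RPKM in KO1 and KO2, against 19.8 and 31.2 RPKM in WT1 and WT2. Egln2 and Egln1, the oxygen sensors that mark it for destruction, were between 12.6 and 24.3 RPKM. Among 17 tested hypoxia targets 2 had an unadjusted p below 0.05, with 3 higher and 6 lower in both numbers and a median log2 change of -0.09. Their most abundant members were Lox, a collagen cross-linking enzyme, at 631 and 507 RPKM in KO1 and KO2 against 458 and 361 RPKM in WT1 and WT2, Ldha and Hmox1. Among 11 tested semaphorin and plexin genes, the ligands and receptors that share Nrp1, 2 had an unadjusted p below 0.05 and the median was -0.15, with Plxna1, Nrp2 and Sema3a the most abundant. Nrp2 was at 11.7 and 18.1 RPKM in KO1 and KO2, against 14.8 and 23.5 RPKM in WT1 and WT2, below WT within both numbers where Nrp1 was above it.

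Of 33 tested genes that act downstream of the receptors, 2 had an unadjusted p below 0.05, 9 were higher and 10 lower in both numbers, both near the shares over all genes, and the median log2 change was -0.01. The most abundant, Cdc42, Rac1 and Hspb1, were between 37.3 and 180 RPKM. Of 23 tested angiogenic ligands and receptors of other families 6 had an unadjusted p below 0.05, beside 9.1% of all genes tested. In both numbers 10 were higher and 5 lower, beside 22.5% and 31.4%, and the median log2 change was 0.13. Thbs1, an inhibitor of vessel growth, was at 1339 and 524 RPKM in KO1 and KO2, against 1069 and 383 RPKM in WT1 and WT2 (limma adjusted p 0.321 in the genotype-and-number fit). That fit called it higher in KO after quantile normalization (limma adjusted p 0.0261, range over the alternatives 0.0261 to 0.595). Cxcl12 and Thbs2 were the next most abundant.

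The genes whose pattern over the 4 libraries was closest to that of Flt1, by Euclidean distance between centred log2(RPKM + 0.5) profiles, were Ly6c1 (distance 0.21), Pappa (0.25), Plac8 (0.29), Rassf8 (0.30) and Tubb3 (0.32). Pappa, a protease that cuts IGF binding proteins, was at 27.9 and 16.1 RPKM in KO1 and KO2, against 13.1 and 6.65 RPKM in WT1 and WT2. The 5 were picked for a profile that is high in both KO libraries, so their own differences between the genotypes are given no test. Ly6c1 has a close copy in the genome, so its level is uncertain. Among the other VEGF genes Vegfc came closest, at rank 418, followed by Pgf at rank 2396, and Flt4, Kdr and Vegfb were at ranks 8848 to 10181. With 4 libraries many genes share a profile, and the ranks are a description.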

How the data were processed

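RNA of 4 libraries, with removal of ribosomal RNA and poly-A selection both described, was sequenced on a Genome Analyzer IIx, per the labels' protocols. The deposited values are RPKM per RefSeq transcript, computed by the authors with Cufflinks per the deposited readme. The submitters' processing notes name Partek and build mm9. The aligner is not given in the sources used here, nor is the handling of reads with several matches. Rows cover chromosomes 1 to 19. The other 18 samples (input, RNA polymerase II, H3K27me3 and H3K4me3) are not analysed here.

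Transcripts were summed per symbol, and all 17 transcript rows of the 10 genes matched RefSeq by accession. Reads mapped were estimated from olfactory receptor loci with a single exon, where RPKM times length comes in whole reads (at least 95.7% of 17 to 38 loci whole within 0.02 of a read). Genes were tested with limma 3.58.1 (trend and robust variance, R 4.3.3) on log2(RPKM + 0.5), two-sided, with Benjamini-Hochberg adjustment over all 11147 genes. The fits were first tested on simulated data. Genotype was the only term of the main design. A fit that adds the replicate number is given beside it because the libraries split by number. Other alternatives were the pseudocount (0.1 or 1), the filter (none or 1 RPKM), scaling, the transcript used, the variance model and each library left out. The genes, lists and rule for naming were chosen with earlier results of these data known. Named were the 10 genes, Hells, list members past the threshold, the 3 most abundant tested members of each list, and the 5 genes nearest to Flt1. Promoter windows came from RefSeq (GRCm38.p6).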

Additional observations from a re-analysis of the deposited data

How the results depend on the processing

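Without the replicate number as a term, 0 genes, and so 0 of the VEGF and endothelial genes tested (8, but 7 with a filter at 1 RPKM, which drops Kdr, and 10 with no filter), were called under every alternative run, each library left out included (0 to 0). With the replicate block 75 genes were called, among them 1 of the 8, Flt1. With the block, 40 genes were called at a pseudocount of 0.1 and 59 at 1, 102 with median-ratio scaling, 185 with quantile normalization, 70 with a filter at 1 RPKM, 80 without trend and robust variance, 3 with the highest transcript and 0 with no filter on low values (lowest adjusted p in limma 0.411, 1270 genes with an unadjusted p below 0.05). Of the VEGF and endothelial genes tested, the block called 1 with median-ratio scaling, a pseudocount of 1, a filter at 1 RPKM or without trend and robust variance, 2 with quantile normalization (Flt1 and Vegfc), and 0 otherwise. The combinations of the block with a pseudocount of 1, a filter at 1 RPKM, quantile normalization, the highest transcript and the plain variance model were chosen after seeing the data. No label states a pairing by number; the deviations from the genotype means had a correlation of 0.875 within a number. Between the numbers 6 of those tested were called under each alternative with all 4 libraries except without the genotype term, which called 5; with a library left out that fit has no residual degree of freedom and was not run.

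Flt1 (0.67 to 1.42), Vegfc (0.64 to 0.80) and Kdr (-0.97 to -0.40) kept the sign of their log2 change with each library left out. The difference between the numbers enters such fits, and the sign turned for the others: -1.32 to 0.97 for Flt4, -0.65 to 1.47 for Vegfa, -0.71 to 0.74 for Vegfb, -0.63 to 1.53 for Pgf, -0.53 to 1.46 for Nrp1. Among genes outside the set the ranges that crossed 0 were -1.18 to 1.46 for Cd34, -1.37 to 1.17 for Erg, -0.38 to 0.052 for Plxna1, -0.72 to 0.33 for Sema3a, -0.14 to 0.12 for Rac1, -0.87 to 0.73 for Hspb1, -0.35 to 0.74 for Hif1a, -0.30 to 0.12 for Egln2, -0.40 to 0.10 for Egln1, -1.52 to 0.70 for Hmox1, -0.35 to 1.13 for Thbs1, -0.91 to 0.29 for Cxcl12, -0.45 to 1.07 for Thbs2, -0.83 to 0.29 for Acta2, -0.38 to 1.31 for Pdgfrb, -3.27 to 0.47 for Des, -2.97 to 0.11 for Fcer1g, -3.80 to 0.034 for C1qa, -0.45 to 0.16 for Vim, -0.60 to 0.49 for Col1a2, -0.49 to 0.21 for Col1a1. Rac1 was at 0.025 with median-ratio scaling and 0.062 with quantile normalization, with or without the block, against -0.0082. The cause was not tested. Pecam1 and Cdh5 entered no fit with a filter and rest on 1.23 to 8.78 reads per kilobase.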

Other observations

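Some genes around the VEGF system that the lists hold and that, Ptprb apart, the text has not yet given were picked after their values were seen. They are reported as values only. Ptprb, a phosphatase of endothelial cells that restrains Tek and Kdr signalling, was at 1.84 and 0.469 RPKM in KO1 and KO2, against 0.446 and 0.181 RPKM in WT1 and WT2, and did not pass the filter on low values. Jag1, a Notch ligand, was at 35.9 and 13.4 RPKM in KO1 and KO2, against 18.4 and 8.75 RPKM in WT1 and WT2 (limma adjusted p 0.0848 in the genotype-and-number fit). Sema3e, a semaphorin that acts on vessels through Plxnd1, was at 12.7 and 3.36 RPKM in KO1 and KO2, against 5.29 and 2.50 RPKM in WT1 and WT2 (adjusted p 0.198 in the same limma fit). S1pr1, a lipid receptor that stabilises vessels, was at 70.2 and 10.6 RPKM in KO1 and KO2, against 40.5 and 9.93 RPKM in WT1 and WT2 (adjusted p 0.538 in the same limma fit). These 4 genes were higher in KO within both replicate numbers and higher in both replicate 1 libraries than in the replicate 2 library of the same genotype. Rgs5, a pericyte gene, was at 0.460 and 1.91 RPKM in KO1 and KO2, against 0.146 and 0.720 RPKM in WT1 and WT2 (adjusted p 0.0845 in the same limma fit). All of these genes were higher in KO within both numbers. Of 10 tested mural cell genes 4 were higher in KO within both numbers and 3 lower. Of 11 tested semaphorin and plexin genes 3 were higher and 5 lower, beside 22.5% and 31.4% of all genes tested. Among the lower genes, Anpep was at 0.489 and 3.10 RPKM in KO1 and KO2, against 1.05 and 5.39 RPKM in WT1 and WT2. Sema3f was at 0.898 and 6.16 RPKM in KO1 and KO2, against 2.19 and 8.35 RPKM in WT1 and WT2.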
